A study of Homo sapiens with 4 samples.

Results

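The 32 genes described here encode the E2 ubiquitin-conjugating enzymes and their E2-like partners that carry a UBE2 symbol. They were chosen by name among 20457 features, as UBE2, a letter, and an optional number and letter, with pseudogenes left out. The rule used names and no measured value, and all 32 are protein coding in the reference annotation. RNA was measured in HEK293, an immortalized line of human embryonic kidney origin and wild-type genotype. Cells in both groups were given siRNA at 10 nM for 72 h, either a negative control siRNA (siControl) or siRNA against *CNOT4* (siCNOT4). Each group has 2 libraries, made from poly(A) RNA with a stranded kit. The labels do not say that the 2 libraries of a group came from separate cultures, so p-values measure the spread between these libraries, which may be technical. The study asked whether CNOT4 takes part in the effect of codon usage on gene expression.

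Ubiquitin reaches its substrates through a relay. An E1 enzyme activates it, an E2 carries it as a thioester on a catalytic cysteine, and an E3 ligase brings the loaded E2 to the substrate. CNOT4, a RING-finger E3 that associates with the CCR4-NOT deadenylase complex, works with the UBE2D enzymes, which also serve many other RING and HECT ligases. Other E2s are more specialized, for chain type, for an E3 complex or for a ubiquitin-like protein. RNA levels do not measure the amount or activity of these enzymes.

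The stretch around the catalytic cysteine shows how alike the UBE2D transcripts are, which bears on how well reads can be told apart between them. It is shown from coding nucleotide 223 to 285, counted from 1 at the A of the start codon, read 5′ to 3′ from GENCODE 29 transcripts (GRCh38), with the codon of the catalytic cysteine (codon 85) in capitals.
UBE2D1: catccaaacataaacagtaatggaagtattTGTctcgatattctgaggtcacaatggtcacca
UBE2D2: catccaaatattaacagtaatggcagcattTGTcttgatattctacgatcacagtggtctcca
UBE2D3: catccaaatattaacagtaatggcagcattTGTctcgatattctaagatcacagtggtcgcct
UBE2D4: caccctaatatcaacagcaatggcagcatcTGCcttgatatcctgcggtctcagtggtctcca
All 4 windows encode the same residues. *UBE2D2* and *UBE2D3* differ there by 4 bases (T258C, C268A, T282G and A285T, *UBE2D2* base first), and *UBE2D2* and *UBE2D4* by 10, one of them (T255C) in the cysteine codon. Over the whole 444-nt coding sequence, *UBE2D2* and *UBE2D3* were 86.5% identical in bases and 97.3% in residues (4 residues differ), the closest pair of the family. *UBE2D1* and *UBE2D3* were 88.4% identical in residues, the least alike pair. The longest run of bases shared by *UBE2D2* and *UBE2D3* was 80 nt. Of the 50-nt windows of their longest complete transcripts, 3.84% of those of *UBE2D3* and 1.17% of those of *UBE2D2* also occurred in another transcript, so most of their windows were unique. For *UBE2D4*, 14.4% of the windows matched the opposite strand of other transcripts, mostly *POLR2J4*. Whether the counting used strand is not given in the sources used here. *UBE2D1* lies on chromosome 10 (58334975 to 58370753, plus strand), *UBE2D2* on chromosome 5 (139526431 to 139628433, plus), *UBE2D3* on chromosome 4 (102794383 to 102868896, minus) and *UBE2D4* on chromosome 7 (43926438 to 43956136, plus), in GRCh38.

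Some facts of the libraries touch every result below. Abundance was deposited as TPM (transcript abundance corrected for length and scaled to a fixed sum), which keeps no read totals; the steps between low values put the depth at about 33.0 to 35.1 (in units of 1e6 reads) per library. Differences are given as log2 fold changes of log2(TPM + 1), siCNOT4 minus siControl, tested with limma over the 14208 features whose TPM averaged 1 or more, and a gene is called at a Benjamini-Hochberg adjusted p under 0.05. The median of all tested genes was itself 0.50 higher in siCNOT4, a shift that scaling with TMM or by quantiles, or removing a trend on length and GC content, brings close to 0. The siControl libraries also differed from each other more than the siCNOT4 libraries did. The log2 difference between replicates had an SD over the members of 0.28 in siControl and 0.08 in siCNOT4. Over all tested genes the SD was 0.48 and 0.20. Of the 32 members, 26 were higher in siControl replicate 1 than in replicate 2, as were 11354 of the 14208 tested genes. The HEK293 markers *KRT8*, *KRT18*, *NEFL* and *VIM* were present in every library, though *VIM* fell from 917 and 650 TPM in siControl to 369 and 354 TPM in siCNOT4 (−1.09, adjusted p = 0.0288 by limma), whereas *NEFM* stayed under 1 TPM. *HBB*, *CD3E*, *PTPRC*, *PECAM1* and *ALB*, markers of other cell types, were at or near 0, and *COL1A1* was at 1.39 and 0.906 TPM in siControl and 5.09 and 6.60 TPM in siCNOT4 (1.67, adjusted p = 0.0248 by limma). The part of these markers in the results was not tested.

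*CNOT4*, the targeted gene, had 6.43 and 4.73 TPM in siControl and 3.38 and 3.81 TPM in siCNOT4. Both siCNOT4 values lie below both siControl values, at 0.644 times the control mean. The log2 fold change was −0.51 (SE 0.26), which did not pass the limma test (adjusted p = 0.184). After TMM scaling it was −0.997 and passed (adjusted p = 0.0329), and the adjusted p ranged from 0.00975 to 0.743 over 11 alternative settings. The transcript was still present in both siCNOT4 libraries.

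All 32 UBE2 genes were expressed, and all passed the filter on low values. The most abundant was *UBE2T* (211 ± 21.0 TPM in siControl, SD, n = 2), the Fanconi anaemia E2. *UBE2S* (191 ± 18.6 TPM), which extends chains on substrates of the anaphase-promoting complex, and *UBE2M*, the NEDD8 E2 (166 TPM in both siControl libraries), came next in the control cells. *UBE2W*, which modifies the amino terminus of substrates, was the lowest of all in siControl at 5.04 ± 1.74 TPM, beside *UBE2D4* at 6.57 ± 2.17 TPM. *UBE2D4* was above *UBE2W* within each siControl library (8.10 and 5.04 against 6.27 and 3.81 TPM). The order of *UBE2T* (225 and 196 TPM) and *UBE2S* (178 and 205 TPM) changed between the 2 siControl libraries. Differences between genes were not tested. Together the 32 genes came to 2559 and 2253 TPM in siControl against 2805 and 2882 TPM in siCNOT4, or 0.256% and 0.225% against 0.281% and 0.288% of all TPM. An exact permutation test of 2 libraries against 2 cannot give a p below 0.333, the value here.

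**Figure D1:**
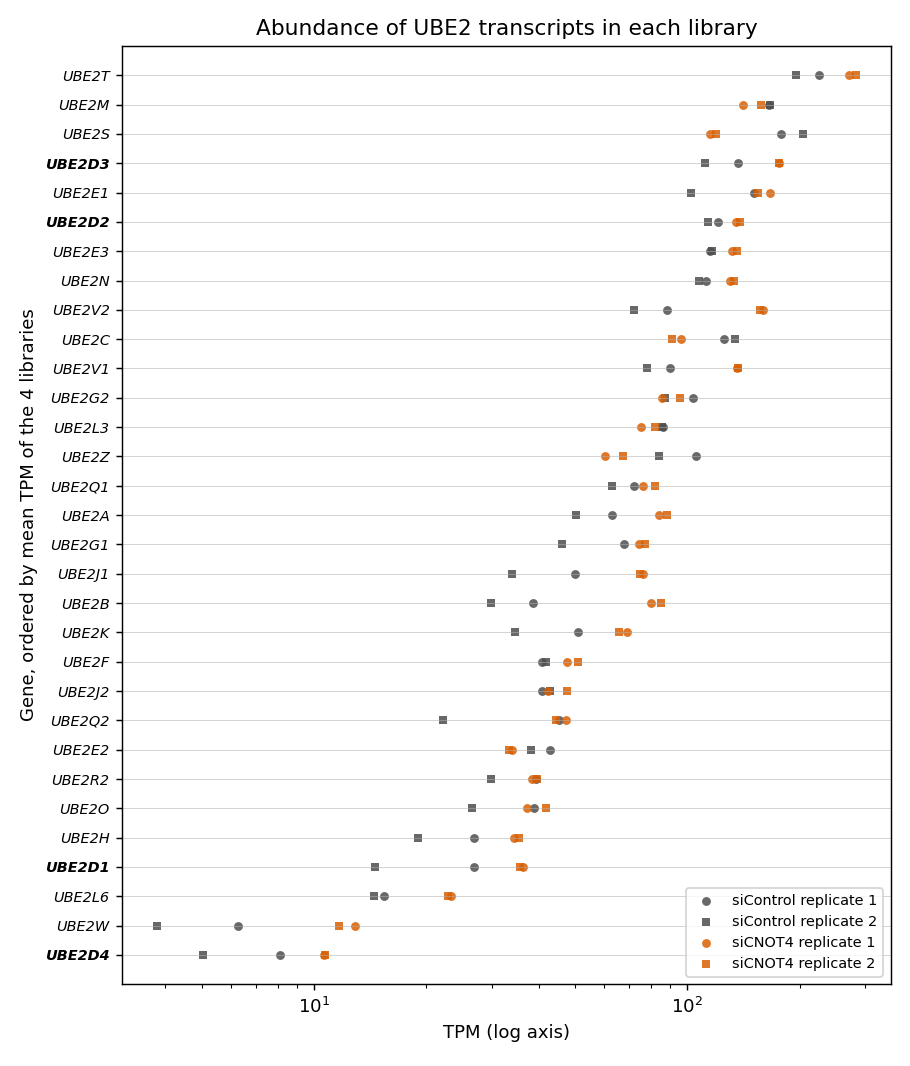
TPM of each UBE2 gene reported by name (rows, ordered by mean) in the 4 libraries, on a log axis; circles and squares are replicates 1 and 2 of each group. The genes run from *UBE2T*, at 196 to 282 TPM, down to *UBE2W* and *UBE2D4*, and the 2 siCNOT4 libraries lie close together for most genes.

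Of the 32 genes, 4 were called by limma (12.5%), against 12.6% of all tested genes: 3 were higher in siCNOT4 (11.3% of all genes) and 1 was lower (1.3%). *UBE2B*, *UBE2V2* and *UBE2V1* rose, and *UBE2S* fell. Without adjustment, 14 members had p under 0.05, 11 higher and 3 lower, where 42% of all tested genes did (38% higher and 4% lower). The TPM values of the groups did not overlap for 27 members, or 84.4%, against 77.1% of all tested genes; siCNOT4 lay above for 21 (65.6%, against 66.4% of all tested genes) and below for 6 (18.8%, against 10.6%), namely *UBE2C*, *UBE2E2*, *UBE2L3*, *UBE2M*, *UBE2S* and *UBE2Z*. The median log2 fold change of the members was 0.37, lower by 0.13 than that of all tested genes, and 19 of the 32 fell below that median. On the deposited scale the call count is close to the background share, so it does not set the UBE2 genes apart. The split by direction depended on the scaling and is given for each scaling below. None of the 4 calls was kept when features under a mean TPM of 5 were left out, where 1.29% of all tested genes were called. Without adjustment, 14 members then had a limma p under 0.05, as did 4476 of 11395 tested genes. Nor was any kept when either siCNOT4 library was left out, which leaves 1 library in that group. Without siControl replicate 1, 26 members were called (81.2%, against 79.6% of all tested genes), and without replicate 2, 21 (65.6%, against 57.5%).

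**Figure D2:**
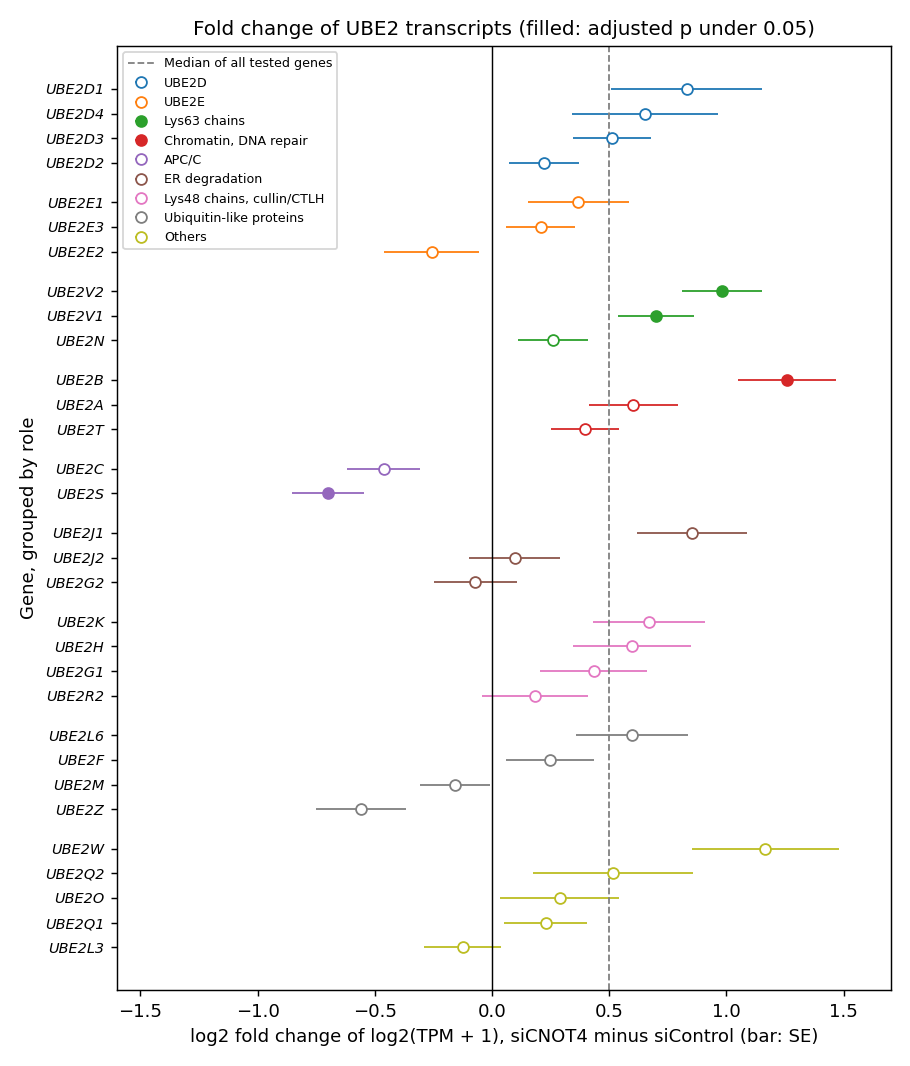
log2 fold change of each UBE2 gene reported by name, siCNOT4 minus siControl, with its standard error as a bar, grouped by role; filled points have an adjusted p under 0.05 and the dashed line is the median of all tested genes (0.50). *UBE2B* (1.26) is at the upper end and *UBE2S* (−0.70) at the lower.

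Among the UBE2D enzymes, which load ubiquitin for CNOT4 and for many other ligases, *UBE2D3* and *UBE2D2* made up most of the RNA. *UBE2D3* had 136 and 111 TPM in siControl and 176 and 176 TPM in siCNOT4. *UBE2D2* had 121 and 114 TPM in siControl and 135 and 139 TPM in siCNOT4. *UBE2D1* was far lower, at 26.8 and 14.6 TPM in siControl and 36.3 and 35.6 TPM in siCNOT4, and *UBE2D4* lowest, at 8.10 and 5.04 against 10.6 and 10.7 TPM. For each of the 4 genes, both siCNOT4 libraries lay above both siControl libraries, as they did for 66.4% of all tested genes. For *UBE2D1*, *UBE2D3* and *UBE2D4*, the siControl replicates differed by more than counting error, with 95% exact Poisson intervals that did not overlap. For *UBE2D4* they were 4.48 to 5.65 TPM in the lower replicate and 7.34 to 8.92 TPM in the higher one. For *UBE2D3* they were 109 to 114 TPM and 133 to 140 TPM. The intervals of *UBE2D2* just overlapped. All rest on estimated reads and cover counting error only.

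None of the 4 passed limma's adjusted threshold, where 12.6% of all tested genes did. Without adjustment, 2 (*UBE2D1* and *UBE2D3*) had a limma p under 0.05, where 42% of all tested genes did. The log2 fold changes were 0.83 (SE 0.32, adjusted p = 0.105) for *UBE2D1*, 0.65 (SE 0.31, adjusted p = 0.155) for *UBE2D4*, 0.51 (SE 0.17, adjusted p = 0.0770) for *UBE2D3* and 0.22 (SE 0.15, adjusted p = 0.282) for *UBE2D2*, by limma. Against the all-gene median, *UBE2D1* was higher by 0.33 and *UBE2D4* by 0.15, *UBE2D3* was level with it (0.01), and *UBE2D2* was lower by 0.28. The direction depended on the scaling for the 2 abundant genes: *UBE2D2* came to −0.38 after TMM scaling, −0.03 after quantile normalization and −0.24 with the length and GC trend removed, and *UBE2D3* to −0.09, 0.30 and −0.22. *UBE2D1* (0.25, 0.32 and 0.09) and *UBE2D4* (0.12, 0.03 and 0.09) stayed above 0 under those 3 settings, with no call in any of them.

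Shares within a library do not move with a single scaling factor such as that of TMM, but they can with quantile normalization or trend removal, which act on genes unequally. The log2 fold changes of *UBE2D3* and *UBE2D2* lay apart on the deposited scale (0.51 and 0.22) and close together with the trend removed (−0.22 and −0.24). Together the UBE2D genes held 11.4% and 10.8% of the summed UBE2 TPM in siControl and 12.8% and 12.5% in siCNOT4, a difference of 1.51 percentage points. *UBE2D3* made up 46.7% and 45.5% of the UBE2D total in siControl and 49.2% and 48.7% in siCNOT4. *UBE2D2* went the other way, with 41.3% and 46.5% in siControl and 37.6% and 38.4% in siCNOT4. *UBE2D1* held 9.18% and 5.96% in siControl and 10.2% and 9.88% in siCNOT4, and *UBE2D4* between 2.06% and 2.97% in every library. The ratio of *UBE2D1* to *UBE2D2* came to 0.222 and 0.128 in the control libraries against 0.270 and 0.257 in siCNOT4. It sets the UBE2D gene with the highest log2 fold change over the one with the lowest, so its direction follows from that choice. The difference between the group means of 0.088 became 0.135 without siControl replicate 1 and 0.041 without replicate 2. The groups were separated for all these shares, each with the smallest p the exact permutation test can give (0.333), so none can pass a threshold in this design.

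**Figure D3:**
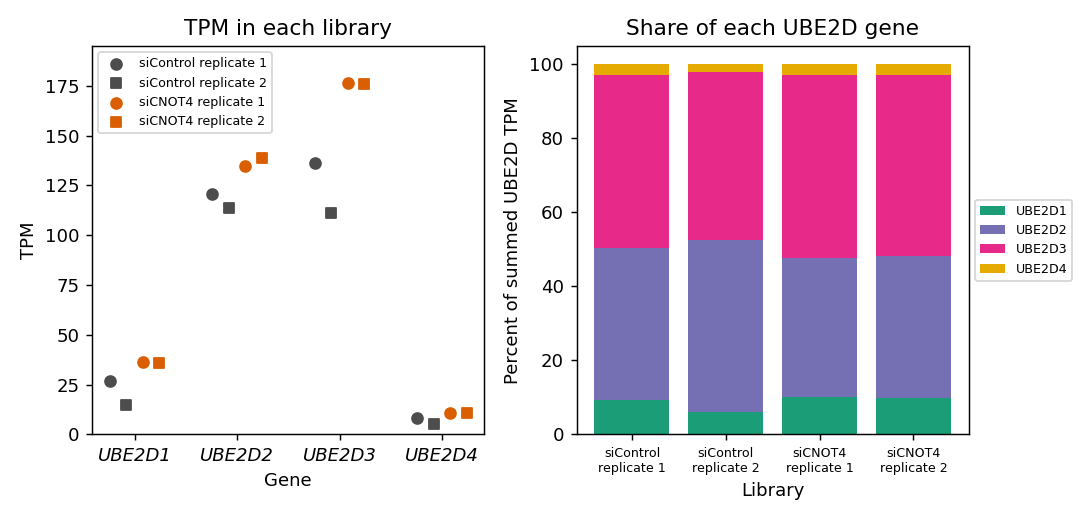
Left, TPM of *UBE2D1* to *UBE2D4* in each library (points); right, the percent of the summed UBE2D TPM held by each gene in each library (stacked bars from 0). *UBE2D3* holds 45.5% to 49.2% and *UBE2D2* 37.6% to 46.5%.

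The E2s of chromatin and DNA repair held *UBE2B*, the UBE2 gene with the highest fold change of log2(TPM + 1), though *UBE2W* was above it as a plain TPM ratio (2.44 against 2.42) and with a pseudocount of 0.1. *UBE2B* and *UBE2A* are the human counterparts of yeast RAD6, which with RAD18 and RNF20/RNF40 ubiquitinates PCNA and histone H2B. They are shown from coding nucleotide 232 to 294, with the codon of the catalytic cysteine (codon 88) in capitals, because the encoded enzymes are near copies while *UBE2B* alone of the pair was called.
UBE2A: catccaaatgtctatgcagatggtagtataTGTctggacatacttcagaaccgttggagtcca
UBE2B: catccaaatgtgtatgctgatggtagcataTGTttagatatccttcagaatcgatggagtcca
The windows differ by 9 bases and no residue; over the 459-nt coding sequence the identity was 80.4% in bases and 95.4% in residues. No 50-nt window of either transcript occurred elsewhere in the annotation. *UBE2B* (chromosome 5, 134371179 to 134391992, plus strand) had 38.7 and 29.7 TPM in siControl and 80.0 and 85.2 TPM in siCNOT4. Both siCNOT4 values were more than double either control value. Its log2 fold change was 1.26 (SE 0.21, adjusted p = 0.0276 by limma), 0.76 above the median of all tested genes. *UBE2B* was also called after TMM scaling (0.67, adjusted p = 0.0477), quantile normalization (0.87, 0.0259) and removal of the length and GC trend (0.71, 0.0141). Its log2 fold change ranged from 0.67 to 1.44 over 12 alternatives, 8 of which kept the call. Those 8 include the fits with a siControl library left out, where most tested genes were called.

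*UBE2A* (X chromosome, 119574467 to 119591083, plus strand) had 62.7 and 50.4 TPM in siControl and 83.9 and 88.0 TPM in siCNOT4, which gave a log2 value of 0.60 (SE 0.19, adjusted p = 0.0728 by limma) that came to 0.007 after TMM scaling. The control libraries had a *UBE2B* to *UBE2A* ratio of 0.617 and 0.590 and the siCNOT4 libraries one of 0.954 and 0.968, 1.59 times higher. This and the other ratios below were chosen after the values were seen. *UBE2T*, which with FANCL ubiquitinates FANCD2 and FANCI, had 225 and 196 TPM in siControl and 271 and 282 TPM in siCNOT4 (0.40, adjusted p = 0.0966 by limma; −0.21 after TMM scaling).

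The E2s of Lys63-linked chains, used in DNA damage tolerance and NF-kB signalling, form a heterodimer of catalytic UBE2N with one of the inactive E2 variants UBE2V1 and UBE2V2. Both variants rose and *UBE2N* did not pass the test. *UBE2V2* had 88.0 and 71.8 TPM in siControl and 159 and 156 TPM in siCNOT4 (log2 fold change 0.98, SE 0.17, adjusted p = 0.0304 by limma). *UBE2V1* had 89.7 and 78.2 TPM in siControl and 136 and 137 TPM in siCNOT4 (0.70, SE 0.16, adjusted p = 0.0460 by limma). *UBE2N* had 112 and 107 TPM against 130 and 133 TPM (0.26, adjusted p = 0.219 by limma). The groups were separated for all 3 genes, with siCNOT4 above, as for 66.4% of all tested genes. The sum of the variants over *UBE2N* came to 1.58 and 1.40 in the control libraries against 2.27 and 2.20 after *CNOT4* siRNA, 1.501 times higher.

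Of 12 alternatives, 5 kept the call of *UBE2V2* and 3 that of *UBE2V1*, where 8 kept that of *UBE2B*. Each tally includes the fits with a siControl library left out, where most tested genes were called. It also includes the replicate block, where 25.7% of all tested genes were called. The tallies thus overstate how steady the calls were. *UBE2V2* kept its call after quantile normalization (0.72, adjusted p = 0.0281) but not after TMM scaling (0.38, 0.141) or with the length and GC trend removed (0.09, 0.690), and its adjusted p ranged from 6.38e-05 to 0.690 over 12 alternatives. *UBE2V1* lost its call under all 3 (adjusted p 0.676 after TMM scaling, 0.0597 after quantile normalization and 0.164 with the trend removed; range 0.000165 to 0.676 over 12 alternatives). *UBE2V1* also shares 81.2% of its 50-nt windows with other transcripts, nearly all with the readthrough *TMEM189-UBE2V1*, so its value cannot be separated from that feature, which had 108 and 90.6 TPM in siControl and 160 and 161 TPM in siCNOT4 (0.70, adjusted p = 0.0473 by limma). *UBE2N* overlaps *NUDT4* on the opposite strand over 46.9% of its windows, and whether the counting used strand is not given in the sources used here.

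UBE2C and UBE2S are the E2s of the anaphase-promoting complex; UBE2C starts ubiquitin chains on mitotic substrates and UBE2S extends them through Lys11. Both transcripts were lower in siCNOT4, and *UBE2S* was called. *UBE2S* (chromosome 19, 55399745 to 55407777, minus strand) had 178 and 205 TPM in siControl and 115 and 119 TPM in siCNOT4. It was lower in both siCNOT4 libraries than in either control, by 0.70 on the log2 scale (−0.70, SE 0.15, adjusted p = 0.0436 by limma) and by 1.20 against the all-gene median (−1.20). *UBE2S* was called after TMM scaling (−1.30, adjusted p = 0.0420), quantile normalization (−0.90, 0.0259) and trend removal (−1.03, 0.0160). Its log2 fold change ranged from −1.30 to −0.60 over 12 alternatives, 6 of which kept the call. Those 6 include the fits with a siControl library left out, where most tested genes were called. Of its 50-nt windows, 17.5% also occur in the pseudogenes *UBE2SP1* and *UBE2SP2*.

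*UBE2C* had 125 and 134 TPM in siControl and 96.4 and 91.1 TPM in siCNOT4. The log2 fold change was −0.46 (SE 0.16, adjusted p = 0.0828 by limma), and it was called after TMM scaling (−1.06, adjusted p = 0.0483), quantile normalization (−0.73, 0.0332) and trend removal (−0.61, 0.0182; range 0.00138 to 0.629 over 12 alternatives). The pair summed to 303 and 339 TPM in the control libraries and to 212 and 210 TPM after *CNOT4* siRNA. The ratio of *UBE2T*, about as abundant in the control cells, to *UBE2S* went from 1.26 and 0.957 to 2.35 and 2.37.

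**Figure D4:**
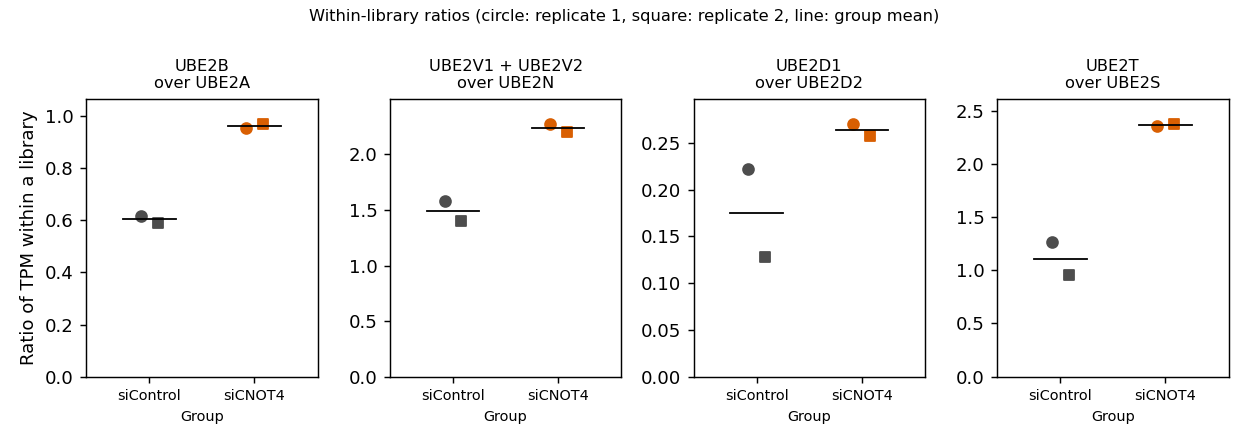
Ratios of TPM within each library (points; circles replicate 1, squares replicate 2) with the mean of each group as a line, on axes that start at 0. In all 4 panels the siCNOT4 libraries lie above the siControl libraries, by 1.59 times for *UBE2B* over *UBE2A*, 1.501 times for the UBE2V sum over *UBE2N*, 1.503 times for *UBE2D1* over *UBE2D2*, and 2.13 times for *UBE2T* over *UBE2S*.

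Of the 5 E2s for ubiquitin-like proteins, none was called by limma on the deposited scale, where 12.6% of all tested genes were. Without adjustment, 2 had a limma p under 0.05, where 42% of all tested genes did. *UBE2Z*, which takes ubiquitin or FAT10 from UBA6, had 106 and 84.0 TPM in siControl and 60.2 and 67.3 TPM in siCNOT4. Its log2 fold change was −0.56 (SE 0.19, adjusted p = 0.0861 by limma), and it was called after TMM scaling (−1.15, adjusted p = 0.0300), quantile normalization (−0.89, 0.0266) and trend removal (−0.99, 0.0105; range 0.00213 to 0.587 over 12 alternatives). *UBE2L6*, the ISG15 E2, had 15.4 and 14.5 TPM in siControl and 23.3 and 22.9 TPM in siCNOT4 (0.60, adjusted p = 0.113 by limma). Its value was 0.024 after TMM scaling and 0.44 with the trend removed, where it was called (adjusted p = 0.0458 by limma). The 2 NEDD8 E2s serve different cullins. *UBE2M* had 166 and 166 TPM in siControl and 141 and 157 TPM in siCNOT4 (−0.16, adjusted p = 0.429 by limma; −0.76 after TMM scaling). *UBE2F* over *UBE2M* gave 0.246 and 0.252 for the control libraries, below the 0.338 and 0.324 of siCNOT4. Of the 50-nt windows of *UBE2F*, 25.5% also occur in other transcripts, mostly the readthrough *UBE2F-SCLY*. That feature had 32.9 and 26.9 TPM in siControl and 34.4 and 35.1 TPM in siCNOT4.

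The E2s of endoplasmic reticulum degradation gave values on both sides of 0. *UBE2J1*, anchored in the membrane of the reticulum, had 50.01 and 33.9 TPM in siControl and 75.9 and 74.5 TPM in siCNOT4 (0.85, SE 0.23, adjusted p = 0.0593 by limma). It came to 0.26 after TMM scaling, 0.47 after quantile normalization and 0.12 with the trend removed. Its relative *UBE2J2* had 40.9 and 42.8 against 42.3 and 47.5 TPM, and *UBE2G2* 104 and 87.2 against 85.6 and 95.7 TPM, so that the groups overlapped for both. None of the 3 was called by limma on the deposited scale, where 12.6% of all tested genes were. *UBE2J1* alone had an unadjusted p under 0.05, where 42% of all tested genes did. With the trend removed, *UBE2G2* was called lower (−0.57, adjusted p = 0.0266 by limma), as were 13.4% of all tested genes. The ratio of *UBE2J1* to *UBE2J2* went from 1.22 and 0.792 to 1.80 and 1.57.

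No member of the remaining groups was called by limma on the deposited scale, where 12.6% of all tested genes were. An unadjusted p under 0.05 was found for 42% of all tested genes. The share called lower was 5.78% after TMM scaling, 8.23% after quantile normalization and 13.4% with the length and GC trend removed. In the UBE2E family, close relatives of UBE2D with an extended amino terminus, no unadjusted p was under 0.05. *UBE2E2* had 42.8 and 38.1 TPM in siControl and 33.98 and 33.3 TPM in siCNOT4, which gave −0.26 (adjusted p = 0.343 by limma) that was called after TMM scaling (−0.85, adjusted p = 0.0427), quantile normalization (−0.70, 0.0371) and trend removal (−0.82, 0.0141; range 0.0141 to 0.846 over 12 alternatives). *UBE2E1* and *UBE2E3* had values of 0.37 and 0.21, both of which turned negative after TMM scaling. The E2s of Lys48-linked chains and of cullin or CTLH ligases were *UBE2G1*, *UBE2H*, *UBE2K* and *UBE2R2*. They ranged from 0.18 (*UBE2R2*) to 0.67 (*UBE2K*, adjusted p = 0.0902 by limma), and 1 of them had an unadjusted p under 0.05. With the trend removed, *UBE2K* came to −0.20, and *UBE2R2* was called lower (−0.41, adjusted p = 0.0438 by limma). Among the others, *UBE2W* had 6.27 and 3.81 TPM in siControl and 12.9 and 11.7 TPM in siCNOT4 (1.17, SE 0.31, adjusted p = 0.0573 by limma), and it was the only one of these 5 with an unadjusted p under 0.05. Its value came to 0.64 after TMM scaling, 0.55 after quantile normalization and 0.15 with the trend removed. *UBE2L3*, the E2 of parkin and of the HECT and RBR ligases, had 85.9 and 85.4 against 74.97 and 82.0 TPM (−0.13, adjusted p = 0.566 by limma; −0.57 and called with the trend removed).

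Across the 4 scalings compared (deposited TPM, TMM, quantile and trend removed), 16 members kept 1 direction, 9 higher and 7 lower, and 16 changed direction. The count of calls was 5 (15.6% of members) after TMM scaling, 1 higher and 4 lower. There, 9.9% of all tested genes were called (4.12% higher, 5.78% lower). It was 6 (18.8%) after quantile normalization, 2 higher and 4 lower, against 15.3% of all genes (7.11% higher, 8.23% lower). With the trend removed it was 9 (28.1%), 2 higher and 7 lower, against 25.3% of all genes (11.9% higher, 13.4% lower). *UBE2B* and *UBE2S* were called in all 4.

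Codon composition, the property the study is about, varied widely among these genes. GC3, the percent of codons with G or C in the third position, ran from 30.4% in *UBE2D1* to 81.6% in *UBE2S*. Of all tested genes, whatever their GC3, 81.2% had a log2 fold change above 0 on the deposited scale. Of the 19 members with a GC3 below 50%, 18 did, and the exception was *UBE2E2*, at 43.6%. The median of these 19 was 0.52, against 0.71 for the 4605 tested coding genes below that bound. Of the 13 members with a GC3 of at least 50%, 7 were above 0 and 6 below, with a median of 0.10, against 0.39 for 8272 genes. In both classes the median of the members was lower than that of all genes. Within the UBE2D family, *UBE2D4* stood apart, with a GC3 of 60.8% where *UBE2D1*, *UBE2D3* and *UBE2D2* had 30.4%, 33.1% and 35.1% over the 444-nt coding sequence, and its fold change lay between those of *UBE2D1* and *UBE2D3*. *UBE2B* (33.3%) and *UBE2A* (46.4%) also differed.

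Spearman's rho between log2 fold change and GC3 was −0.64 over the 32 members and −0.34 over 12877 tested coding genes. These are descriptions across genes, which share the same 4 libraries and are not independent replicates. Differences between replicates of 1 group were also related to GC3 over the members, with a rho of −0.38 for siControl replicate 1 minus 2 and −0.44 for siCNOT4 replicate 1 minus 2. For transcript length, rho was 0.32 for the fold change of the members and 0.49 for the siControl replicate difference, and 0.41 and 0.67 over the coding genes. The part of base composition and length in the differences between the groups, as against differences between libraries of 1 group, was not tested.

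**Figure D5:**
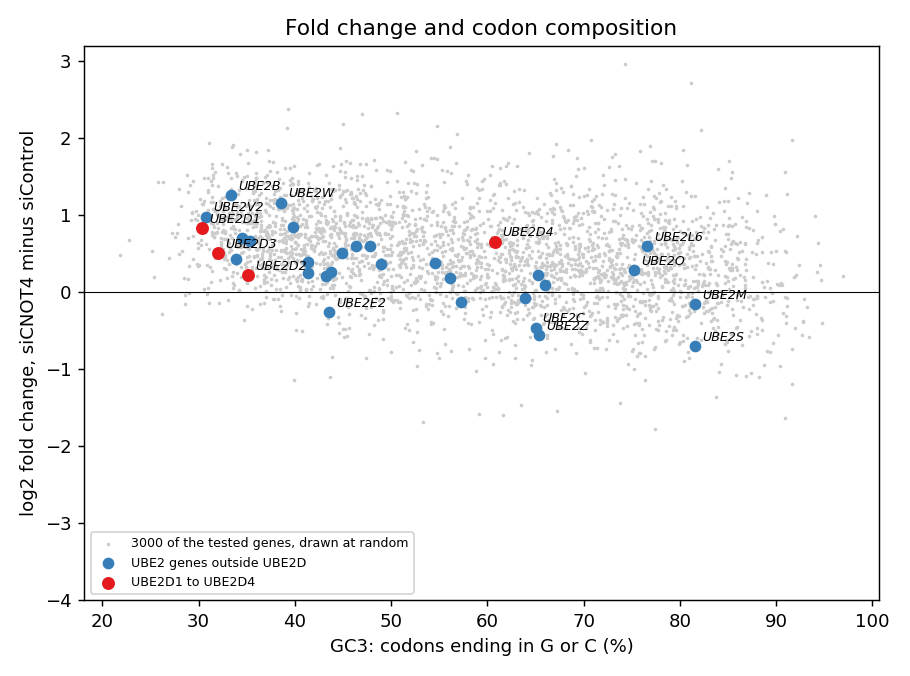
log2 fold change, siCNOT4 minus siControl, against GC3 (percent of codons with a third-position G or C) for the UBE2D genes, the other UBE2 genes and 3000 tested genes drawn at random (grey). The members with a GC3 below 50% lie above 0 except *UBE2E2*, and those of at least 50% lie on both sides of 0. Of all tested genes, 81.2% lie above 0.

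Steps before and after the E2 were compared through 4 lists of 40 genes, of which 39 passed the filter and 4 were called by limma, all higher (10.3%, against 12.6% of all tested genes). The direction of the calls depended on the scaling. After TMM scaling 4 were called, 0 higher and 4 lower (4.12% and 5.78% of all tested genes). After quantile normalization 3 were higher and 4 lower (7.11% and 8.23% of all tested genes). With the length and GC trend removed, 3 were higher and 8 lower (11.9% and 13.4% of all tested genes). *CNOT4*, the siRNA target, belongs to these lists and was among the lower calls in each of these settings. The median log2 fold change of the list genes on the deposited scale was 0.73, against 0.50 for all tested genes. *RPS27A*, which encodes ubiquitin fused to a ribosomal protein, had 2112 and 3393 TPM in siControl and 1608 and 1512 TPM in siCNOT4 (−0.78, adjusted p = 0.0633 by limma). *UBB*, a polyubiquitin gene, had 3054 and 3697 against 2539 and 2514 TPM (−0.41, adjusted p = 0.0789 by limma). None of the 8 E1 genes tested was called by limma, and 5 had an unadjusted p under 0.05, where 42% of all tested genes did; the values ran from −0.22 for *SAE1*, a subunit of the SUMO E1, to 1.22 for *UBA6*, the E1 that loads UBE2Z (21.3 and 10.5 against 37.7 and 34.7 TPM, adjusted p = 0.0636 by limma). *UBA7*, the ISG15 E1, did not pass the filter.

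Of 9 E2-fold proteins without a UBE2 symbol of the chosen form, *AKTIP*, an inactive E2 variant, rose from 19.2 and 19.4 TPM to 40.2 and 40.2 TPM (1.02, SE 0.21, adjusted p = 0.0411 by limma), but was not called higher after TMM scaling. Of 18 E3 ligases that can use UBE2D, *CNOT4* included, 3 rose on the deposited scale (11.3% of all tested genes were called higher), though none did after TMM scaling. *MDM2*, the p53 ligase, had 106 and 77.0 TPM in siControl and 186 and 192 TPM in siCNOT4 (1.06, SE 0.20, adjusted p = 0.0333 by limma). *BIRC2*, a ligase of TNF receptor signalling, had 22.1 and 14.4 against 41.6 and 39.8 TPM (1.15, SE 0.27, adjusted p = 0.0475 by limma). *BRCA1*, a repair ligase, had 32.7 and 17.0 against 60.0 and 60.5 TPM (1.32, SE 0.32, adjusted p = 0.0492 by limma). *ZNF598*, which marks collided ribosomes, had the lowest log2(TPM + 1) fold change of the list on the deposited scale (by TPM ratio *CNOT4* was lower, 0.644 against 0.654), at 51.4 and 40.2 TPM in siControl and 27.8 and 32.1 TPM in siCNOT4 (−0.59, adjusted p = 0.104 by limma). The 4 calls were lost after TMM scaling, where no list member was called higher. They were also lost when features under a mean TPM of 5 were left out, where 1.29% of all tested genes were called. Without adjustment, 25 list members then had a limma p under 0.05, as did 4476 of 11395 tested genes. The 4 calls were lost too when either siCNOT4 library was left out, which leaves 1 library in that group. Without siControl replicate 1, 35 list members were called (79.6% of all tested genes), and without replicate 2, 32 (57.5%).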

How the data were processed

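Poly(A) RNA of 4 HEK293 libraries was sequenced from stranded libraries, per the labels' protocols. The authors deposited 1 table of TPM per library, which sums to 1e+06. The submitters' processing notes name STAR 2.5.3a, featureCounts, FastQC 0.11.2 and the build hg19. How TPM was made, its gene lengths and the use of strand are not given in the sources used here. Sample titles gave the groups. Tests used log2(TPM + 1); the pseudocount of 1 understates changes of low genes. Features averaging 1 TPM or more over the libraries were tested with limma 3.58.1 (R 4.3.3; lmFit, eBayes with a trend, prior degrees of freedom 4.22), 2 libraries against 2, with Benjamini-Hochberg adjustment, after the fit was tested on simulated data. Shares were compared by two-sided exact permutation tests over libraries. Depth was estimated from TPM steps and GENCODE 29 transcript lengths, so read numbers and Poisson intervals are approximate. Properties and sequences came from GENCODE 29 (GRCh38; 19395 features matched, all 32 members among them), with GC3 of the longest coding sequence unless another length is given. TMM trimmed 30% of ratios and 5% of abundances, without weights; the length and GC trend was a spline with 4 degrees of freedom, over 13738 matched features. Values per library are given for *CNOT4*, the UBE2D genes, called members, the 6 highest and 6 lowest members of at least 5 TPM, and further members chosen after their values were seen; from the 4 lists, for called genes or else the highest and lowest. The members and lists were chosen with earlier results of these data known. Values of some single genes are not reported here; counts over members and lists include them.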

Additional observations from a re-analysis of the deposited data

How the results depend on the processing

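Counts of calls by limma moved with most settings. Of all tested genes, 12.6% were called as reported, 3.93% with a pseudocount of 0.1 and 4.60% with no filter on low values. The share was 1.29% at a mean TPM of at least 5, 25.3% with the length and GC trend removed and 3.76% with robust eBayes. For the UBE2 members, the shares in the same order were 12.5%, 6.25%, 3.1%, 0%, 28.1% and 0%. Genes called numbered 1792 as reported, 558 with a pseudocount of 0.1, 908 with no filter on low values, 147 at a mean TPM of at least 5, 3478 with the length and GC trend removed, 534 with robust eBayes without a trend, and 450 to 11311 with 1 library left out. UBE2 members called numbered 4 as reported, and under these settings 2, 1, 0, 9 and 0, and 0 to 26 with 1 library left out; where 0, 14 (mean TPM of at least 5), 11 (robust) and 2 (without either siCNOT4 library) had an unadjusted p under 0.05. Members called in the 4 pathway lists numbered 4 as reported, 0 at the other pseudocount, at both filters and with robust eBayes (21 to 25 with an unadjusted p under 0.05), 4 after TMM scaling (all lower), 7 after quantile normalization, 11 with the trend removed, and 0 to 35 with 1 library left out. With 1 library left out, the lone library is assumed to vary like the other group, whose replicates were closer in siCNOT4. The members' median relative to all genes was −0.13 as reported, 0.022 with no filter and 0.017 after quantile normalization.

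The log2 fold change of *CNOT4* passed the threshold after TMM scaling (−0.997), quantile normalization (−1.15) and trend removal (−1.29), and ranged from −0.70 to −0.32 with 1 library left out; at a mean TPM of at least 5 it was not tested. Those ranges were 0.41 to 1.25 for *UBE2D1*, 0.18 to 0.26 for *UBE2D2*, 0.37 to 0.66 for *UBE2D3* and 0.36 to 0.95 for *UBE2D4*. The sign turned negative for *UBE2D2* after TMM scaling (−0.38), quantile normalization (−0.027) and trend removal (−0.24), and for *UBE2D3* after TMM scaling (−0.089) and trend removal (−0.22). TMM scaling also turned *UBE2E1* (−0.23), *UBE2E3* (−0.39), *UBE2F* (−0.34), *UBE2G1* (−0.16), *UBE2J2* (−0.50), *UBE2N* (−0.34), *UBE2O* (−0.30), *UBE2Q1* (−0.37), *UBE2Q2* (−0.071), *UBE2R2* (−0.41) and *UBE2T* (−0.21). Quantile normalization turned *UBE2E3* (−0.037), *UBE2F* (−0.16), *UBE2J2* (−0.31), *UBE2O* (−0.18), *UBE2Q1* (−0.10) and *UBE2R2* (−0.27). Trend removal turned *UBE2E3* (−0.050), *UBE2F* (−0.18), *UBE2G1* (−0.27), *UBE2H* (−0.054), *UBE2J2* (−0.17), *UBE2K* (−0.20), *UBE2N* (−0.48), *UBE2O* (−0.23), *UBE2Q1* (−0.24), *UBE2Q2* (−0.080) and *UBE2R2* (−0.41). *UBE2G2* turned positive without siControl replicate 1 (0.053) or siCNOT4 replicate 1 (0.0083; range with 1 library left out −0.19 to 0.053), and *UBE2R2* negative without siControl replicate 2 (−0.011; range −0.011 to 0.38). The cause of these changes was not tested.

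Replicate numbers pair the libraries by number only (correlation of the replicate differences across genes 0.17, 2 pairs). With the replicate block, 3655 genes (25.7% of all tested), 6 UBE2 members (18.75%) and 15 pathway list members (38.5%) were called.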

Other observations

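Among features whose names contain UBE2 but that fall outside the rule, the pseudogene *UBE2Q2P1* had 2.08 and 1.45 TPM in siControl and 5.54 and 5.91 TPM in siCNOT4 (log2 fold change 1.29, SE 0.24, adjusted p = 0.0336 by limma). Its parent gene *UBE2Q2* had 45.2 and 22.2 against 47.2 and 44.6 TPM (0.52, adjusted p = 0.273 by limma), with overlapping groups. The pseudogene *UBE2MP1* had 0.964 and 0.778 TPM in siControl and 0.169 and 0.0853 TPM in siCNOT4 and was not tested, and 10.7% of the 50-nt windows of *UBE2M* also occur in it. These features were picked out after their values were seen.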
